A study of Danio rerio with 20 samples.

Results

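Zebrafish larvae without both glo1 and aldh3a1 (double knockout) were compared with larvae without glo1 alone, which asks what the loss of aldh3a1 added when glo1 was already missing. The libraries were chosen by their genotype labels: all 5 double knockout libraries and all 5 glo1 knockout libraries, 10 of the 20 libraries in the series. The remaining libraries, 5 from wild type and 5 from aldh3a1 knockout larvae, did not enter this comparison and were used only where the same loss was set beside it on the wild type background. All 4 genotypes were on the Tg(fli1:EGFP) line, in which a fli1 promoter drives green fluorescent protein in endothelial cells, and the mutants were made by CRISPR/Cas9 editing. Both groups compared therefore carried the transgene and lacked glo1, and by label they differed in the aldh3a1 genotype.

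RNA was taken from whole larvae. The sources used here give neither the larval age and mutant alleles nor the number of larvae pooled in a library. The labels do not say whether the libraries of a genotype came from separate clutches, and the p-values therefore rest on a library-to-library spread that may be technical. Nor do they say whether the groups shared clutches or parents. A difference of clutch or line between the groups therefore cannot be told apart from that of the aldh3a1 genotype. In RNA from whole animals, fewer cells of a type and less RNA per cell cannot be told apart.

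Methylglyoxal is a reactive dicarbonyl that forms as a by-product of glycolysis and modifies proteins and nucleic acids. Glyoxalase 1, the product of glo1, disposes of it together with glutathione. Aldehyde dehydrogenases oxidise aldehydes to acids, some of them can also oxidise methylglyoxal, and ALDH3A1 is known in mammals for acting on aldehydes derived from lipid peroxidation and for its abundance in the cornea. The study examined the vessels, glucose handling, the transcriptome and metabolites of these fish, so the genes of those systems are described after the largest changes.

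The 10 libraries held between 35255078 and 36198361 counts each, and values are given as CPM (counts scaled to a common library size) after scaling for library composition. CPM values are not corrected for gene length and were compared only within a gene. glo1, the gene that both groups should lack, read 4.13, 3.53, 3.45, 3.51 and 3.18 CPM in glo1 knockout libraries 1 to 5 and 3.31, 3.85, 4.29, 4.3 and 5.21 CPM in double knockout libraries 1 to 5. It was low in both groups, with a mean of 66.6 CPM in the wild type libraries, and the difference between them did not pass the threshold (log2 fold change 0.24 ± 0.14 SE, edgeR adjusted p = 0.263). aldh3a1 itself was not analysed here, since none of the gene IDs was paired with that symbol, and its label was therefore not checked. Along the leading principal component (35.4% of the variance) the genotypes separated, with the glo1 knockout libraries between -31.8 and -21 and the double knockout libraries between 18.5 and 34.1.

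Of 21490 genes tested with edgeR's quasi-likelihood test, 3382 (15.7%) differed at an adjusted p under 0.05. In the double knockout 1393 genes (6.48%) were higher and 1989 (9.26%) were lower, so 41.2% of the changed genes were higher. Scaling by library totals alone, which shifted the median log2 change of all genes from 0.004 to -0.055, gave 828 higher and 2801 lower genes, or 22.8% higher. The number of higher genes was 925 without glo1 knockout replicate 5 and 919 without double knockout replicate 4. Most changes were small: 285 genes (1.33%) moved at least 2-fold, 133 (0.619%) upwards and 152 (0.707%) downwards. The libraries of the groups did not overlap for 1040 higher genes (4.84%) and 1318 lower genes (6.13%). Among the 1397 genes that averaged at least 100 CPM, 16.4% were higher and 3.79% lower.

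Genes were named for the size of their change only if they passed the threshold and the libraries of the groups did not overlap. Separate groups were thus a condition of the choice, not a result. Genes below 5 CPM and genes without a symbol, or with a clone or locus name, were also left out. Among all genes tested, the log2 changes past the threshold ran from -5.16 to 10.5. The genes named for size therefore do not include the extremes. The largest rise among the genes named for size was in actc1c, an alpha actin of the striated muscle type. It read 1.2, 0.875, 0.496, 0.627 and 0.769 CPM in glo1 knockout libraries 1 to 5 and 78.7, 55.0, 93.4, 83.7 and 61.2 CPM in double knockout libraries 1 to 5. Every double knockout library stood far above every glo1 knockout library (log2 fold change 6.55 ± 0.23 SE, edgeR adjusted p = 1.94e-07). On a scale shared by all 20 libraries actc1c averaged 88.9 CPM in wild type, 14.3 in aldh3a1 knockout, 0.813 in glo1 knockout and 76.6 in double knockout larvae. Its lowest level was thus in the glo1 knockout group.

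No other alpha actin tested rose. actc1a read 224, 165, 196, 238 and 199.8 CPM in the glo1 knockout libraries and 100.03, 91.5, 134, 102 and 98.0 CPM in the double knockout libraries. The groups did not overlap, and actc1a fell by 0.96 on the log2 scale (± 0.12 SE, edgeR adjusted p = 0.000448). The ID with the symbol actc1 changed by -0.25 (edgeR adjusted p = 0.147; -0.33 and adjusted p = 0.042 with limma) and actc1b by -0.07 (edgeR adjusted p = 0.75), the latter at 21635 ± 2175 CPM (SD, n = 5) against 20617 ± 3755. Of the pair of IDs with the symbol acta1, ENSDARG00000036371 changed by -0.07 (edgeR adjusted p = 0.604) and ENSDARG00000055618 by -0.16 (edgeR adjusted p = 0.34); the second passed the threshold without double knockout replicate 3, at -0.28 (edgeR adjusted p = 0.00634). Alpha actin genes are close in sequence, so reads may be shared among them.

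Several other genes were low in the glo1 knockout libraries and higher in the double knockout libraries. An ID of ahsa1 (ENSDARG00000028664), an activator of the Hsp90 chaperone, read between 0.354 and 0.901 CPM without glo1 and between 4.19 and 6.56 CPM in the double knockout (log2 fold change 2.92 ± 0.20 SE, edgeR adjusted p = 6.19e-08). An ID of scg5 (ENSDARG00000077045), a chaperone of prohormone convertase 2 in secretory granules, rose from 0.707 to 2.26 CPM up to 4.90 to 15 CPM, by 2.81 ± 0.45 (edgeR adjusted p = 0.00365). mhc1zba, an antigen-presenting class I molecule, read 4.92, 2.73, 1.79, 2.72 and 8.54 CPM against 17.5, 16.2, 23.4, 22.2 and 18.2 CPM, a rise of 2.23 ± 0.38 (edgeR adjusted p = 0.00608). Separate groups were a condition for naming these genes. On the scale shared by all 20 libraries ahsa1 averaged 5.22 CPM in wild type, 0.719 in glo1 knockout and 5.48 in double knockout larvae. For scg5 these means were 6.67, 1.12 and 7.91 CPM, so the glo1 knockout group stood apart for both. For mhc1zba they were 6.8, 4.25 and 20.1 CPM, so there the double knockout group did.

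Smaller rises of the same kind were seen in a helicase, a peptide precursor and a centriole protein. ddx43, a DEAD-box helicase, rose by 2.17 ± 0.26 (edgeR adjusted p = 0.000273), and ecrg4 (ENSDARG00000088717), which encodes a secreted peptide precursor, by 2.0 ± 0.21 (edgeR adjusted p = 0.000145). crtac1 (ENSDARG00000059826), which encodes a protein of the extracellular matrix of cartilage, rose by 1.33 ± 0.26 (edgeR adjusted p = 0.00747). cep135, which encodes a protein of the centriole, went from 9.45 ± 0.575 CPM to 20.8 ± 1.17 CPM (SD, n = 5 each), a rise of 1.14 ± 0.07 (edgeR adjusted p = 3.97e-08). The rises of ggact (ENSDARG00000038248) and slc27a1 (ENSDARG00000104949) were less stable. ggact was at 0 in 3 of the 5 glo1 knockout libraries but at 2.5 CPM in replicate 1, and its change of 3.53 ± 0.96 (edgeR adjusted p = 0.0407) missed the threshold without any 1 of the other 9 libraries (adjusted p between 0.0595 and 0.0852) and was 7.35 without glo1 knockout replicate 1. slc27a1, a fatty acid transporter, rose by 1.24 ± 0.33 (edgeR adjusted p = 0.0336), a call that was lost without glo1 knockout replicate 2, 4 or 5 or double knockout replicate 1, 3, 4 or 5 (edgeR adjusted p between 0.0525 and 0.0772).

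**Figure D1:**
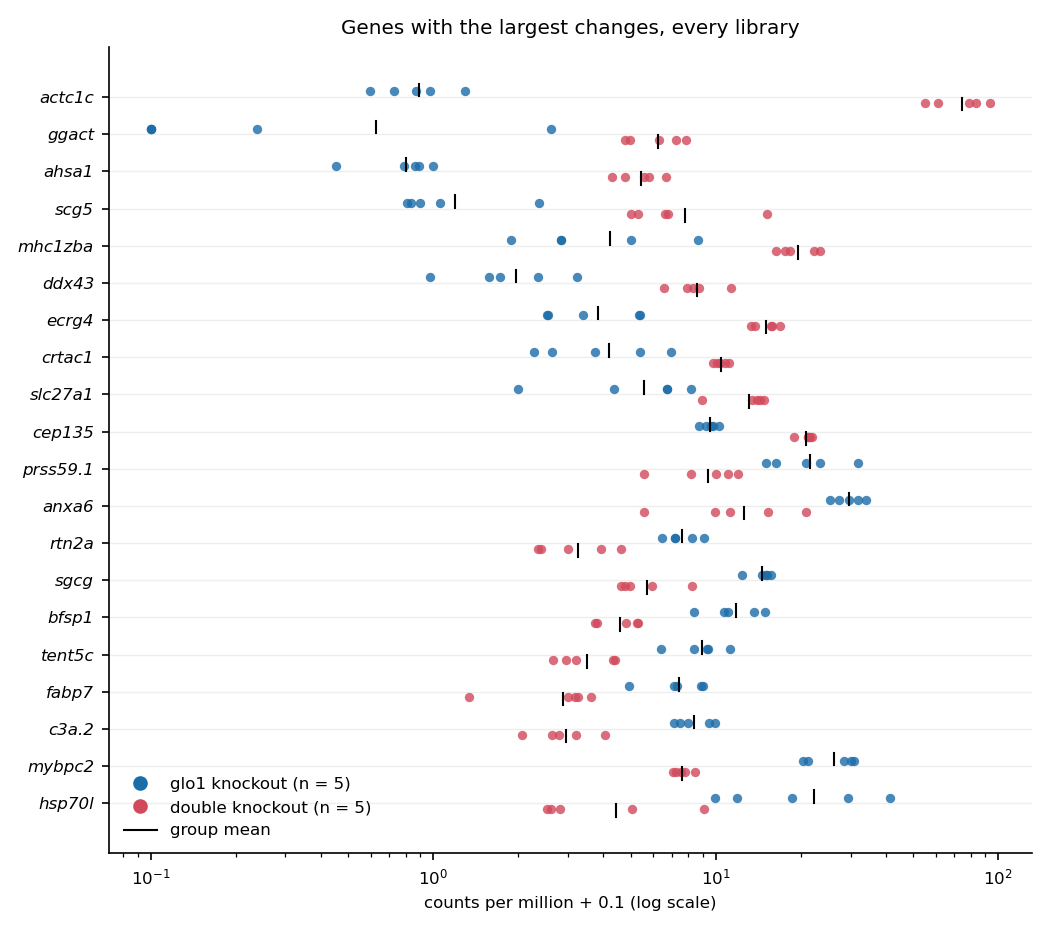
Level of the 20 genes named for the size of their change in each library, as CPM plus 0.1 on a log axis, with the glo1 knockout libraries in blue, the double knockout libraries in red (5 each) and the group means as black lines. actc1c stands between 0.496 and 1.2 CPM in the glo1 knockout libraries and between 55.0 and 93.4 CPM in the double knockout libraries; genes are ordered by their log2 fold change.

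Among the falls named for size were genes of striated muscle. mybpc2, which encodes a myosin-binding protein of fast muscle, read 28.3, 30.8, 29.9, 20.2 and 21.2 CPM in glo1 knockout libraries 1 to 5 and 6.99, 7.12, 7.69, 8.36 and 7.43 CPM in double knockout libraries 1 to 5. The groups were well apart, with a fall of 1.80 ± 0.12 SE on the log2 scale (edgeR adjusted p = 9.95e-08). sgcg, the gamma subunit of the sarcoglycan complex at the muscle membrane, fell by 1.37 ± 0.14 (edgeR adjusted p = 1.16e-05), and rtn2a, a reticulon of the endoplasmic reticulum, fell by 1.25 ± 0.17 (edgeR adjusted p = 0.000196). tent5c, a poly(A) polymerase, fell by 1.38 ± 0.16 (edgeR adjusted p = 5.76e-05).

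Genes of the complement system, the lens, the glia and the pancreas were also among the falls named for size. c3a.2, a copy of complement component C3, read between 7.0 and 9.87 CPM without glo1 and between 1.96 and 3.95 CPM in the double knockout, a fall of 1.55 ± 0.16 (edgeR adjusted p = 7.8e-06). bfsp1, which encodes a filament protein of lens fibres, fell by 1.38 ± 0.15 (edgeR adjusted p = 4.03e-05), fabp7 (ENSDARG00000034650), a fatty acid-binding protein of glia, by 1.4 ± 0.23 (edgeR adjusted p = 0.00162) and prss59.1, a trypsin-like digestive enzyme, by 1.21 ± 0.26 (edgeR adjusted p = 0.0151). The calls of bfsp1 and prss59.1 were lost in the model over all 20 libraries (edgeR adjusted p = 0.0963 and 0.0793).

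hsp70l and anxa6 varied more within groups. hsp70l, a stress-inducible chaperone, read 18.6, 29.3, 11.8, 41.4 and 9.81 CPM in the glo1 knockout libraries and 2.43, 9.0, 4.96, 2.70 and 2.51 CPM in the double knockout libraries. The groups came close but did not overlap, and its fall of 2.36 ± 0.55 (edgeR adjusted p = 0.0247) missed the threshold without glo1 knockout replicate 2 or double knockout replicate 1, 4 or 5 (edgeR adjusted p between 0.0505 and 0.0645). anxa6, a calcium-dependent membrane-binding protein, fell by 1.24 ± 0.30 (edgeR adjusted p = 0.0278), a call lost without glo1 knockout replicate 1, 2, 3 or 5 or double knockout replicate 4 or 5 (edgeR adjusted p between 0.0517 and 0.0707).

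The enzymes that handle dicarbonyls and aldehydes had a median log2 change of -0.01, where all genes tested had a median of 0.00. Of 33 tested, 2 were higher and 4 lower, against 6.48% higher and 9.26% lower among all genes. The lists that follow are to be read against the same shares. All 6 changes were among the 19 aldehyde dehydrogenases, while 0 of the 5 glyoxalase and deglycase genes and 0 of the 9 aldo-keto reductases and alcohol dehydrogenases passed by edgeR, DESeq2 or limma, or at an unadjusted p under 0.05. The 4 lower genes became 2 without glo1 knockout replicate 3 or double knockout replicate 4, and the 2 higher became 1 without glo1 knockout replicate 1 or 5 or double knockout replicate 4, with library totals alone or in the model over all 20 libraries. aldh3b1, of the same family as aldh3a1, read 9.90, 8.69, 8.22, 9.45 and 7.47 CPM in the glo1 knockout libraries and 11.4, 10.7, 13.4, 13.2 and 10.9 CPM in the double knockout libraries. Each double knockout library was above each glo1 knockout library, with a rise of 0.44 ± 0.10 (edgeR adjusted p = 0.00555).

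The other aldehyde dehydrogenases that moved were mostly lower. aldh5a1, which acts on succinic semialdehyde in the breakdown of GABA, fell by 0.31 ± 0.07 (edgeR adjusted p = 0.00732), and aldh18a1, an enzyme of proline synthesis, fell by 0.19 ± 0.05 (edgeR adjusted p = 0.0152). A pair of aldh3a2 genes, which in mammals oxidise fatty aldehydes, were looked at after their values were seen. aldh3a2b changed by -0.65 ± 0.20 (edgeR adjusted p = 0.0329) and the ID with the symbol aldh3a2 by -0.37 ± 0.11 (edgeR adjusted p = 0.0323). Without 1 library these p-values reached 0.0938 for aldh3a2b (lost without glo1 knockout replicate 1, 3 or 5 or double knockout replicate 1, 4 or 5) and 0.0897 for aldh3a2 (lost without glo1 knockout replicate 2, 3 or 4 or double knockout replicate 3 or 4), by the same edgeR test.

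Glutathione enzymes and targets of the transcription factor Nrf2 went both ways. Against 6.48% higher and 9.26% lower among all genes, 6 of 65 tested were higher and 3 lower, with a median of 0.06. Scaling by library totals alone turned this to 2 higher and 5 lower, and the lower count was 1 without glo1 knockout replicate 2 or double knockout replicate 1 or 5. mgst2, a microsomal glutathione transferase, read 15.6, 14.8, 12.6, 15.2 and 12.4 CPM in the glo1 knockout libraries and 6.99, 9.29, 6.79, 7.72 and 8.23 CPM in the double knockout libraries. The groups did not overlap and it fell by 0.86 ± 0.10 (edgeR adjusted p = 4.03e-05). fth1a, a ferritin heavy chain that stores iron, rose by 0.39 ± 0.06 (edgeR adjusted p = 0.00035), and keap1, which encodes the protein that holds Nrf2 in check, rose by 0.31 ± 0.08 (edgeR adjusted p = 0.0133), with overlapping groups.

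The genes of insulin signalling and glucose uptake that passed were lower. Of 58 tested, 10 were lower and 0 higher, with a median of -0.07, against 9.26% lower among all genes tested. 1 gene was higher without glo1 knockout replicate 4 or double knockout replicate 2. pik3ca, the catalytic subunit of phosphoinositide 3-kinase, read 11.8, 11.3, 12.7, 12.4 and 15.3 CPM in the glo1 knockout libraries and 9.96, 8.30, 8.59, 6.68 and 6.86 CPM in the double knockout libraries. All double knockout libraries were below all glo1 knockout libraries, and the gene fell by 0.65 ± 0.11 (edgeR adjusted p = 0.00105). An ID of slc2a1 (ENSDARG00000007412), a glucose transporter of many tissues, fell by 0.74 ± 0.13 (edgeR adjusted p = 0.00135) and slc2a15b by 0.42 ± 0.10 (edgeR adjusted p = 0.00636). Another ID of slc2a1 (ENSDARG00000001437) changed by -0.42 ± 0.2 and did not pass (edgeR adjusted p = 0.184). An ID of the insulin receptor gene insr (ENSDARG00000071524), added after its values were seen, fell by 0.32 ± 0.08 (edgeR adjusted p = 0.0149), a call lost in the model over all 20 libraries (edgeR adjusted p = 0.19).

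The islet hormones themselves did not pass the threshold: 0 of 7 tested passed by edgeR, DESeq2 or limma, and 1 had an unadjusted p under 0.05. ins, which encodes insulin, read 1.80, 2.60, 1.88, 2.67 and 2.86 CPM in the glo1 knockout libraries and 1.61, 1.91, 2.12, 1.71 and 2.16 CPM in the double knockout libraries, a change of -0.31 ± 0.17 (edgeR adjusted p = 0.246). For the glucagon genes the change was 0.38 ± 0.18 in gcga (edgeR adjusted p = 0.159) and -0.34 ± 0.24 in the ID with the symbol gcg (edgeR adjusted p = 0.382). Of 29 islet genes tested, 1 was higher and 2 lower, and this balance was not stable. Higher genes numbered 4 without double knockout replicate 2, 3 without double knockout replicate 3 or with limma and 2 without glo1 knockout replicate 3, and the lower count was 1 without glo1 knockout replicate 3 or 5 or double knockout replicate 4 or 5. pcsk1, a prohormone convertase that processes proinsulin, fell from 23.6 ± 2.61 to 15 ± 3.08 CPM (SD, n = 5 each), by 0.65 ± 0.12 (edgeR adjusted p = 0.0032), and an ID of abcc8 (ENSDARG00000077007), the sulfonylurea receptor, rose by 0.38 ± 0.08 (edgeR adjusted p = 0.00277). Both genes are also expressed outside the islet, in neurons or other endocrine cells.

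In gluconeogenesis and glycogen turnover 1 of 46 genes was higher and 7 were lower, with a median of -0.11, against 6.48% higher and 9.26% lower among all genes. The number higher was 2 without glo1 knockout replicate 4 or with DESeq2. The 7 became 4 without glo1 knockout replicate 3 or 5, 13 with scaling by library totals alone and 1 in the model over all 20 libraries. pck1, the cytosolic enzyme that commits carbon to gluconeogenesis, changed by -0.10 ± 0.22 (edgeR adjusted p = 0.809), its mitochondrial counterpart pck2 by -0.05 ± 0.10 (edgeR adjusted p = 0.78) and fbp1b by -0.04 ± 0.11 (edgeR adjusted p = 0.829). fbp1a, the other fructose-1,6-bisphosphatase 1 gene, read 17.8, 19.2, 18.6, 18.7 and 17.4 CPM against 22.9, 22.2, 24.9, 27.5 and 23.6 CPM. The groups were separate, and it rose by 0.40 ± 0.07 (edgeR adjusted p = 0.0011). pygm (ENSDARG00000055518), the muscle glycogen phosphorylase, fell by 0.64 ± 0.10 (edgeR adjusted p = 0.000996) and agl (ENSDARG00000100352), the glycogen debranching enzyme, by 0.47 ± 0.08 (edgeR adjusted p = 0.00116). Neither pygm nor agl passed in the model over all 20 libraries (edgeR adjusted p = 0.0544 and 0.155).

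Glycolysis had 2 higher and 7 lower genes of 43, with a median of -0.03, against 6.48% higher and 9.26% lower among all genes. The higher count was 0 without glo1 knockout replicate 1, 4 or 5 or double knockout replicate 3, 4 or 5, without a filter on low counts and in the model over all 20 libraries. It was 1 without glo1 knockout replicate 2 or double knockout replicate 1 or 2, and with a filter of 5 CPM, library totals alone or upper quartile factors. pdk1, a kinase that restrains pyruvate dehydrogenase, fell by 0.55 ± 0.11 (edgeR adjusted p = 0.00291), and the muscle enzymes pfkm (ENSDARG00000014179) and pgam2 fell by 0.41 ± 0.08 and 0.35 ± 0.08 (edgeR adjusted p = 0.00395 and 0.00808). In the model over all 20 libraries pfkm and pgam2 did not pass (edgeR adjusted p = 0.142 and 0.187). The 7 lower genes became 4 without glo1 knockout replicate 3 or 5 or double knockout replicate 5, 12 with scaling by library totals alone and 3 in the model over all 20 libraries.

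Of 39 genes of endothelial identity, which mark the cells that the transgene labels, 1 was higher and 3 lower. Of 41 genes of ligands, guidance and Notch signalling 1 was higher and 6 lower. Together these endothelial and angiogenesis genes gave 2 higher and 9 lower of 80 tested, with a median of 0.03. Among all genes 6.48% were higher and 9.26% lower. The lower share was thus near that of all genes. Higher genes numbered 4 without double knockout replicate 2 and 1 without glo1 knockout replicate 1 or 5 or double knockout replicate 4 or 5, or with library totals alone. Without double knockout replicate 4 or 5 or glo1 knockout replicate 5 the lower count was 3, 5 or 4, and it was 3 in the model over all 20 libraries. kdrl, a receptor for vascular endothelial growth factor, changed by 0.06 ± 0.08 (edgeR adjusted p = 0.667) and cdh5, the cadherin of endothelial junctions, by 0.03 ± 0.06 (edgeR adjusted p = 0.782). tek, the receptor for angiopoietins, read 11.8, 13.1, 14.6, 16.1 and 12.2 CPM in the glo1 knockout libraries and 10.2, 11.7, 8.64, 10.6 and 11 CPM in the double knockout libraries. The groups lay next to each other without overlapping, and tek fell by 0.38 ± 0.10 (edgeR adjusted p = 0.0155). nrp1b, a co-receptor for vascular endothelial growth factor and semaphorins, fell by 0.64 ± 0.13 (edgeR adjusted p = 0.00309), and an ID of cldn5 (ENSDARG00000043716), a tight junction protein of the vessel barrier, fell by 0.40 ± 0.10 (edgeR adjusted p = 0.0109).

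Genes of the cytosolic ribosome were higher almost throughout. Of 84 tested, 75 were higher and 0 lower, with a median log2 change of 0.24. In 70 of the 84 every double knockout library was above every glo1 knockout library, against shares of 6.48% higher and 4.84% without overlap among all genes. Among genes that averaged at least 100 CPM 16.4% were higher, a share that itself counts abundant ribosomal genes such as those named below. Between 68 and 76 were higher when any 1 library was left out, and 68 with scaling by library totals alone. Ribosomal protein genes took 9.35, 9.81, 9.90, 9.68 and 9.07% of all counts in glo1 knockout libraries 1 to 5 and 10.5, 11, 10.9, 10.8 and 11.4% in double knockout libraries 1 to 5. The groups were separate, and the difference of 1.36 percentage points gave p = 0.00794 in the exact two-sided permutation test, the smallest that 5 against 5 libraries can give.

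The single ribosomal changes were small and close to each other in size. rplp2, a protein of the ribosomal stalk, read 834 ± 51.9 CPM without glo1 and 1091 ± 21.1 CPM in double knockout larvae (SD, n = 5 each), a rise of 0.39 ± 0.05 (edgeR adjusted p = 9.08e-05). rpl31 rose by 0.38 ± 0.05 (edgeR adjusted p = 0.000148) and rpl14 by 0.34 ± 0.05 (edgeR adjusted p = 0.000271), both of the large subunit. rpl34, picked after its values were seen because it lay above the rest, rose by 0.71 ± 0.09 (edgeR adjusted p = 0.000272).

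Among the tissue lists tested, skin had the largest share of higher genes. Of 40 skin and keratin genes tested, 22 were higher and 1 lower, with a median of 0.24. In 15 of the 40 every double knockout library was above every glo1 knockout library. Among all genes 6.48% were higher, 9.26% were lower and 4.84% were higher without overlap. The 22 became 14 with scaling by library totals alone and 12 in the model over all 20 libraries. The 1 lower gene became 0 without double knockout replicate 1, 4 or 5 and in that model, and 2 without glo1 knockout replicate 2 or double knockout replicate 2, with library totals alone or with limma. cyt1, a type I keratin of the larval skin, read 2049, 2052, 2081, 1942 and 1777 CPM in the glo1 knockout libraries and 2781, 2295, 3013, 2971 and 3044 CPM in the double knockout libraries. Each double knockout library was above each glo1 knockout library, a rise of 0.51 ± 0.07 (edgeR adjusted p = 0.000169). anxa1, an annexin listed with the skin genes, rose by 0.65 ± 0.07 (edgeR adjusted p = 1.85e-05), cldn1, a claudin of epidermal tight junctions, by 0.56 ± 0.08 (edgeR adjusted p = 0.000156), and anxa1b, added after its values were seen, by 0.99 ± 0.19 (edgeR adjusted p = 0.00866).

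**Figure D2:**
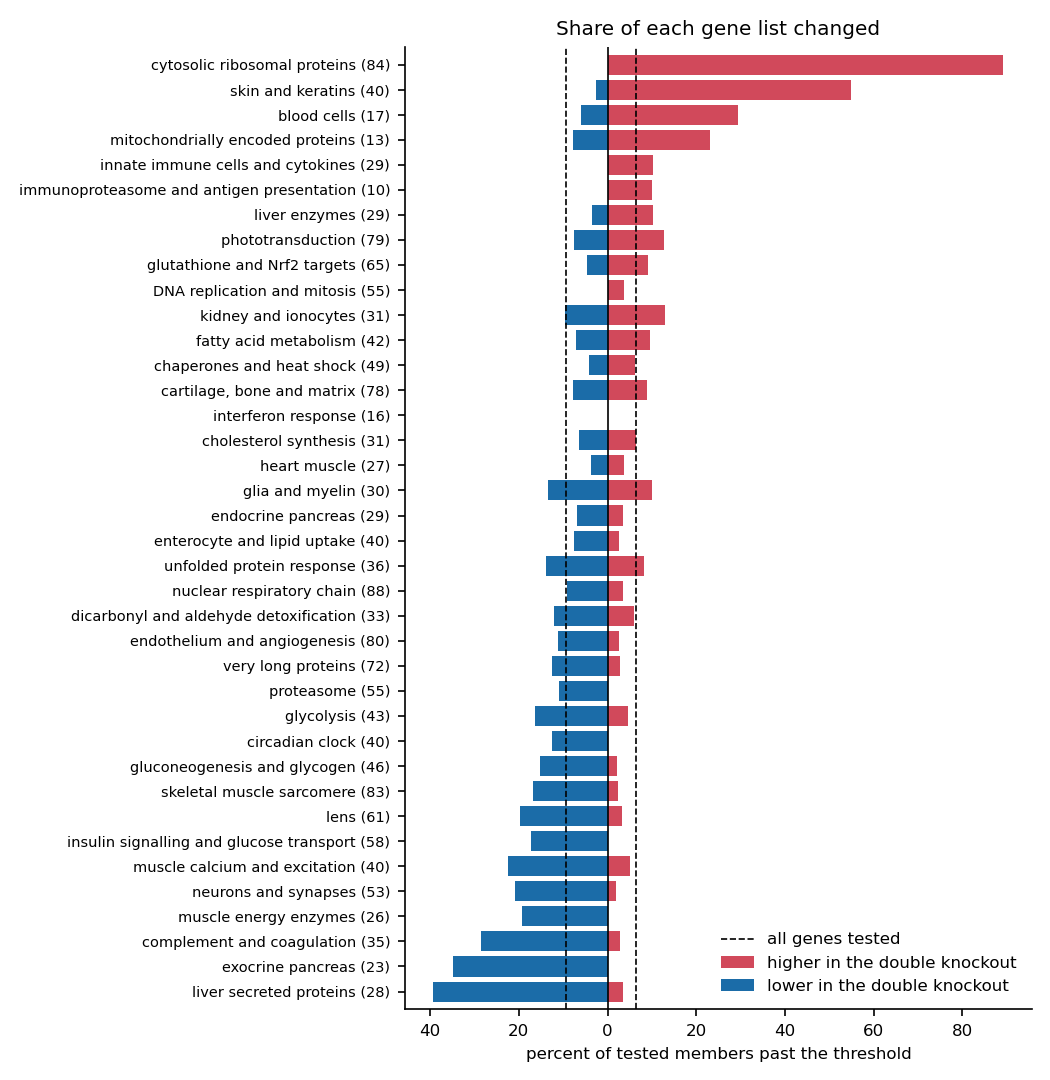
Share of tested members of each of the 38 gene lists that passed an adjusted p of 0.05, lower in the double knockout to the left (blue) and higher to the right (red), with the number tested in brackets. The dashed lines mark all genes tested (9.26% lower, 6.48% higher); the ribosomal list had 75 of 84 members higher, and the secreted liver proteins 11 of 28 lower.

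Among genes for proteins that the liver secretes into the blood, 11 of 28 tested were lower and 1 higher, with a median of -0.45, against 9.26% lower among all genes, and 16 did not pass. The number higher was 2 without double knockout replicate 2. Without glo1 knockout replicate 3 or double knockout replicate 1 the lower count was 7, and it was 5 in the model over all 20 libraries. serpina1l, a serum protease inhibitor, read 26.7, 22.2, 19.1, 24.7 and 17.0 CPM in the glo1 knockout libraries and 11, 12.7, 10.5, 12.3 and 8.68 CPM in the double knockout libraries. The groups did not overlap, and it fell by 0.99 ± 0.12 (edgeR adjusted p = 0.000149). gc, the vitamin D-binding protein, fell by 1.21 ± 0.18 (edgeR adjusted p = 0.000461). apoa2, an apolipoprotein of high-density lipoprotein, fell from 219 ± 15.3 to 142 ± 22.1 CPM (SD, n = 5 each), by 0.63 ± 0.09 (edgeR adjusted p = 0.000625), but did not pass in the model over all 20 libraries (edgeR adjusted p = 0.0575).

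Complement and coagulation genes, most of them also made in the liver, gave 1 higher and 10 lower of 35, with a median of -0.27. Among all genes 6.48% were higher and 9.26% lower. The 1 higher became 0 in the model over all 20 libraries. Lower genes numbered 4 without glo1 knockout replicate 2 or 4, 6 without glo1 knockout replicate 3 or double knockout replicate 2 or 3, 5 without double knockout replicate 5, 6 with a filter of 5 CPM in 5 libraries and 3 in the model over all 20 libraries. fgg, the gamma chain of fibrinogen, fell by 0.78 ± 0.13 (edgeR adjusted p = 0.000838; 0.0682 in the model over all 20 libraries), and c3a.6, another C3 copy, by 0.58 ± 0.14 (edgeR adjusted p = 0.0072). Of 29 metabolic enzymes of the liver, 3 were higher and 1 lower, with a median of -0.12 and 21 of 29 changes below 0. The 3 higher became 1 without glo1 knockout replicate 2, 3 or 5 or double knockout replicate 3 or 4, with library totals alone and in the model over all 20 libraries. The number lower was 2 without double knockout replicate 3, 3 with limma and 0 with a filter of 5 CPM. agxt (ENSDARG00000052099), which detoxifies glyoxylate, rose from 10.3 ± 0.168 to 16.5 ± 3.41 CPM (SD, n = 5 each), by 0.68 ± 0.11 (edgeR adjusted p = 0.000616), and ass1, an enzyme of the urea cycle, fell by 0.72 ± 0.14 (edgeR adjusted p = 0.00196).

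Digestive enzymes of the exocrine pancreas had the lowest list median, -0.76, but their calls depended on single libraries. Of 23 tested, 8 were lower and 0 higher (1 higher without glo1 knockout replicate 1, without a filter or robust estimation, with DESeq2 or limma, and in the model over all 20 libraries). The lower count was 2 without glo1 knockout replicate 1 or 3, 1 without glo1 knockout replicate 2 or double knockout replicate 1, 5 without glo1 knockout replicate 4, 4 without glo1 knockout replicate 5 or double knockout replicate 4 and 3 without double knockout replicate 2. It was 0 in the model over all 20 libraries, 5 without a filter on low counts, 13 without robust estimation and 16 with limma. prss1, a trypsin, read 87.1, 109, 136, 83.4 and 76.3 CPM in the glo1 knockout libraries and 43.7, 52.8, 62.1, 62.6 and 28.2 CPM in the double knockout libraries. The groups were separate, while its fall of 0.98 ± 0.25 (edgeR adjusted p = 0.0329) was lost without glo1 knockout replicate 1, 2 or 3 or double knockout replicate 1 or 2 (edgeR adjusted p between 0.0504 and 0.0693).

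The list of enterocyte and lipid uptake genes was below the median of all genes too, with a median of -0.28, but 1 was higher and 3 lower of 40. The lower genes included cel (ENSDARG00000017490), which encodes a digestive lipase of the exocrine pancreas rather than an enterocyte protein. Lower genes numbered 1 without glo1 knockout replicate 2 and in the model over all 20 libraries, 6 with DESeq2, library totals alone or no robust estimation, and 7 with limma. alpi.1, an intestinal alkaline phosphatase, rose by 0.61 ± 0.11 (edgeR adjusted p = 0.00115), against the sign of the list's median. Double knockout replicate 5 was the lowest library for the secreted liver proteins, the liver enzymes, the enterocytes and the exocrine pancreas. Its mean log2 level relative to the glo1 knockout mean was -0.50, -0.35, -0.53 and -1.05 in these lists, where the other double knockout libraries were between -0.42 and -0.17, -0.16 and 0.06, -0.28 and 0.05, and -0.56 and -0.24. Without it 8 secreted liver genes, 1 liver enzyme, 0 enterocyte genes and 8 exocrine pancreas genes were lower.

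**Figure D3:**
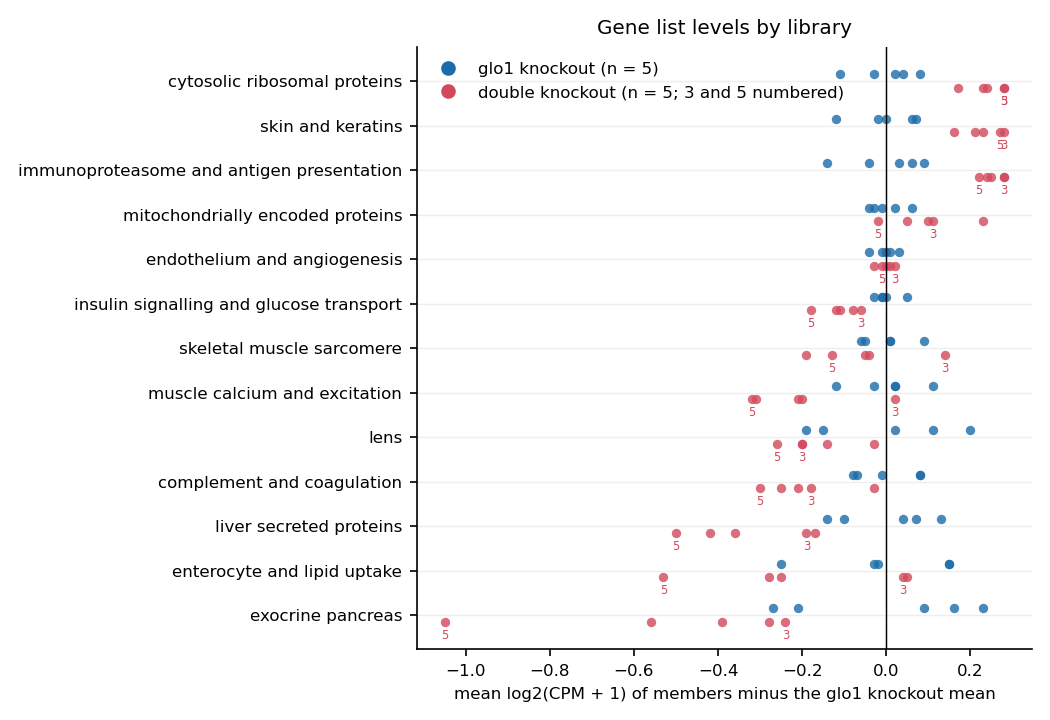
Mean log2(CPM + 1) of the tested members of 13 gene lists in each library, minus the mean of the glo1 knockout libraries, with glo1 knockout libraries in blue and double knockout libraries in red (5 each; double knockout replicates 3 and 5 numbered). The ribosomal list lies between 0.17 and 0.28 in the double knockout libraries and between -0.11 and 0.08 in the glo1 knockout libraries, while in the exocrine pancreas list replicate 5 is at -1.05.

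Skeletal muscle genes apart from actc1c were more often lower than higher. Of 83 sarcomere genes 2 were higher and 14 lower, with a median of -0.07, against 6.48% higher and 9.26% lower among all genes. The lower genes were 5 of the thin filament, 3 of the thick filament and 6 of the Z disc and elastic system, mybpc2 and actc1a among them. The higher genes were actc1c and an ID of tnni2 (ENSDARG00000013752), a fast troponin I, which read 5.47, 4.76, 4.05, 4.25 and 4.19 CPM in the glo1 knockout libraries and 8.54, 7.15, 7.14, 12.1 and 10.9 CPM in the double knockout libraries. The groups did not overlap and tnni2 rose by 1.01 ± 0.15 (edgeR adjusted p = 0.000272). In the model over all 20 libraries 6 sarcomere genes were lower, and 4 were higher without double knockout replicate 2. Between 10 and 20 were lower when any 1 library was left out. The mean log2 level of the list, relative to the glo1 knockout mean, overlapped between the groups. It ran from -0.19 to 0.14 in the double knockout libraries, highest in replicate 3, and from -0.06 to 0.09 in the glo1 knockout libraries.

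Genes of calcium release and membrane excitation in muscle gave 2 higher and 9 lower of 40, with a median of -0.21. The number lower was 20 without double knockout replicate 3, which had the highest level of this list among the double knockout libraries (0.02, the others between -0.32 and -0.20), and 18 with scaling by library totals alone, and the 2 higher became 1 in the model over all 20 libraries. trdn, a protein that anchors the calcium release machinery, read 22.1, 20.1, 17.8, 20.6 and 21.3 CPM in the glo1 knockout libraries and 13.4, 10.6, 15.8, 10.1 and 10.4 CPM in the double knockout libraries. It fell by 0.76 ± 0.11 without overlap (edgeR adjusted p = 0.000313). kcna7, a potassium channel, fell by 1.17 ± 0.20 (edgeR adjusted p = 0.000948), and colq, which anchors acetylcholinesterase at the neuromuscular junction, fell by 0.77 ± 0.15 (edgeR adjusted p = 0.0026). Heart muscle genes gave 1 higher and 1 lower of 27 (2 higher without glo1 knockout replicate 1 or with limma, 2 lower without double knockout replicate 4).

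In the lens 2 genes were higher and 12 lower of 61, with a median of -0.11, against 6.48% higher and 9.26% lower among all genes. Between 10 and 15 lens genes were lower without any 1 library and 7 in the model over all 20 libraries. The higher count was 4 without glo1 knockout replicate 4 or with DESeq2, and 0 in the model over all 20 libraries. Of 15 genes of the lens membrane and cytoskeleton 6 were lower and 0 higher, and of 46 crystallins 6 were lower and 2 higher. hsf4, a transcription factor of lens fibre development, read 4.05, 5.08, 2.73, 4.96 and 4.35 CPM in the glo1 knockout libraries and 1.70, 1.91, 1.13, 1.92 and 1.54 CPM in the double knockout libraries. The groups were separate with a fall of 1.37 ± 0.18 (edgeR adjusted p = 0.000136), a call that was lost in the model over all 20 libraries (edgeR adjusted p = 0.118). crygmxl1, a gamma crystallin, fell by 0.96 ± 0.14 (edgeR adjusted p = 0.000247). Crystallin genes of this family are near-identical in places, so reads may be shared among them.

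In the retina the phototransduction list gave 10 higher and 6 lower of 79, with a median of 0.02. Among all genes 6.48% were higher and 9.26% lower. Higher genes numbered 5, 4 or 6 without double knockout replicate 1, 4 or 5, 4 without glo1 knockout replicate 1, 6 without glo1 knockout replicate 2 or 4 and 5 without glo1 knockout replicate 5. It was 6 with a filter of 5 CPM in 5 libraries or in the model over all 20 libraries, and scaling by library totals alone turned the balance to 5 higher and 11 lower. The lower count was 3 in the model over all 20 libraries. rlbp1b, a retinoid carrier of the Müller glia, rose by 0.49 ± 0.08 (edgeR adjusted p = 0.000948). cnga1 (ENSDARG00000029898), a subunit of the rod channel, fell by 0.74 ± 0.12 (edgeR adjusted p = 0.00049), and nrl, a transcription factor of rods, fell by 0.82 ± 0.17 (edgeR adjusted p = 0.00324).

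Neuronal genes gave 1 higher and 11 lower of 53, with a median of -0.07, against 6.48% higher and 9.26% lower among all genes. The lower count was 7 without glo1 knockout replicate 3 or 5 or double knockout replicate 4 and in the model over all 20 libraries. The number higher was 3 without double knockout replicate 3, 2 without glo1 knockout replicate 3 or with limma and 0 with library totals alone. An ID of slc17a6 (ENSDARG00000001127), a vesicular glutamate transporter, read 17.8, 19.8, 19.1, 16.1 and 24.6 CPM in the glo1 knockout libraries and 13.4, 14.2, 9.75, 9.43 and 10.6 CPM in the double knockout libraries. It fell by 0.76 ± 0.13 without overlap (edgeR adjusted p = 0.00142). vamp2, a synaptic vesicle fusion protein, fell by 0.50 ± 0.10 (edgeR adjusted p = 0.00316) and mapta, a tau gene, by 0.52 ± 0.10 (edgeR adjusted p = 0.00405). Glial genes gave 3 higher and 4 lower of 30, and mag, an adhesion protein of myelin, fell from 14.1 ± 1.29 to 8.30 ± 1.21 CPM (SD, n = 5 each), by 0.76 ± 0.10 (edgeR adjusted p = 0.000128).

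**Figure D4:**
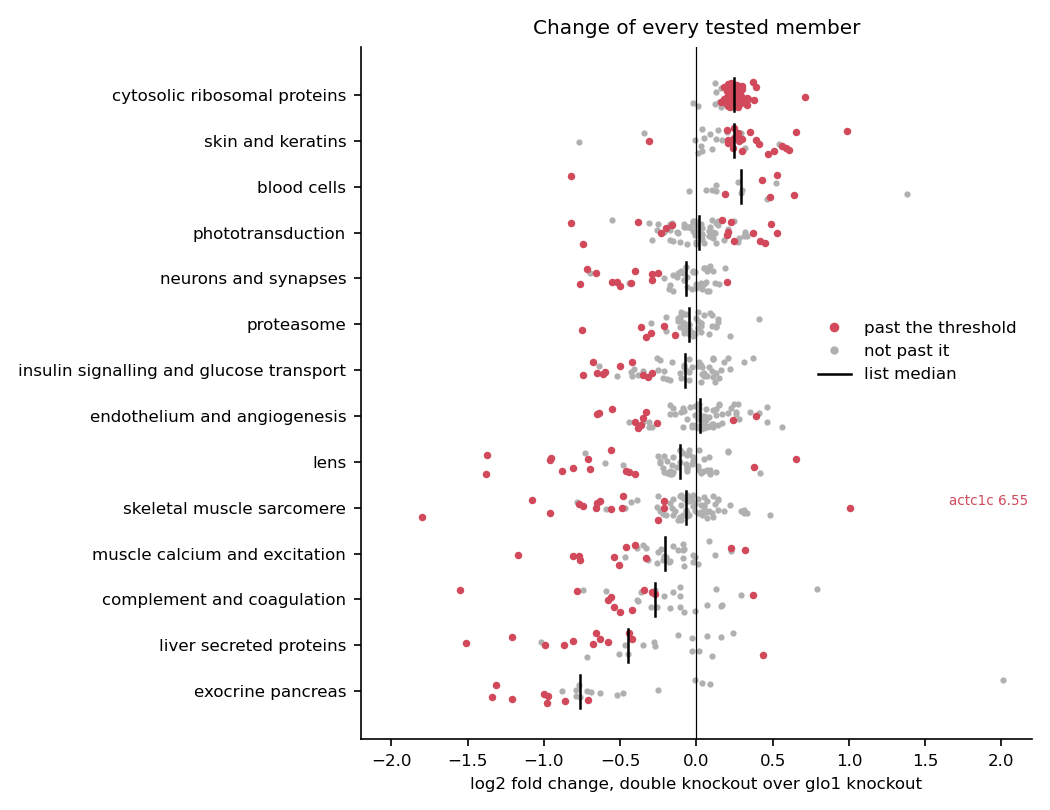
Log2 fold change of every tested member of 14 gene lists, double knockout over glo1 knockout, with members past an adjusted p of 0.05 in red, the others in grey and the list median as a black line. The ribosomal genes lie close around their median of 0.24, the exocrine pancreas has a median of -0.76 and actc1c, at 6.55, is beyond the axis and printed as text.

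Of 55 proteasome genes 6 were lower and 0 higher, a lower share near the 9.26% of all genes. 1 was higher without glo1 knockout replicate 3 or double knockout replicate 1 or 2, or with DESeq2. All 6 lower genes were among the 38 genes of the 19S regulatory cap, activators and assembly, and 0 of 17 genes of the 20S core passed with edgeR (0 with limma, 1 with DESeq2 and 2 at an unadjusted p under 0.05). Scaling by library totals alone gave 10 lower proteasome genes. An ID of psmd2 (ENSDARG00000103190), a scaffold subunit of the cap, read 17.9, 16.5, 17.2, 14.0 and 18.9 CPM in the glo1 knockout libraries and 12, 10.2, 11.5, 8.27 and 8.17 CPM in the double knockout libraries. It fell by 0.75 ± 0.11 without overlap (edgeR adjusted p = 0.00029). A second ID of psmd2 (ENSDARG00000099653) fell by 0.33 ± 0.06 (edgeR adjusted p = 0.00176) and psmd7 by 0.36 ± 0.07 (edgeR adjusted p = 0.00372). The lists of the cap and the core were not tested against each other.

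In protein folding 3 of 49 chaperone genes were higher and 2 lower, against 6.48% higher and 9.26% lower among all genes. The higher count was 5 without glo1 knockout replicate 1 or with limma and 7 with DESeq2. Lower genes numbered 4 without double knockout replicate 3, 1 without glo1 knockout replicate 2 or double knockout replicate 4 or 5 and in the model over all 20 libraries, and 6 with library totals alone, which turned the balance. The 3 higher genes were ahsa1 (ENSDARG00000028664) and the subunits cct2 and cct4 of the chaperonin that folds actin and tubulin. cct2 (ENSDARG00000104674) read 189 ± 7.22 CPM without glo1 and 252 ± 8.74 CPM in double knockout larvae (SD, n = 5 each), a rise of 0.42 ± 0.05 (edgeR adjusted p = 2.51e-05), and cct4 rose by 0.27 ± 0.05 (edgeR adjusted p = 0.00266). Of 36 genes of the unfolded protein response 3 were higher and 5 lower, and the lower count was 3 without glo1 knockout replicate 5 and the higher count 1 with library totals alone. pdia6, a protein disulfide isomerase, fell by 0.41 ± 0.06 (edgeR adjusted p = 0.000233) and ddit3, a transcription factor of endoplasmic reticulum stress, by 0.34 ± 0.07 (edgeR adjusted p = 0.00346). atf4a, another stress transcription factor, rose by 0.20 ± 0.05 (edgeR adjusted p = 0.00621), but not past the threshold with library totals alone (0.14, edgeR adjusted p = 0.0512).

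Mitochondrially encoded genes took 3.13, 3.29, 3.35, 3.31 and 3.26% of the counts in the glo1 knockout libraries and 3.37, 3.52, 3.44, 3.72 and 3.32% in the double knockout libraries. The groups overlapped slightly, and the difference of 0.205 percentage points gave p = 0.0159 in the exact two-sided permutation test. The higher count among the 13 genes was 3, but 1 without glo1 knockout replicate 1, 2 or 5 or double knockout replicate 2 or 4, with library totals alone and in the model over all 20 libraries, 5 with DESeq2 and 6 without double knockout replicate 5. The number lower was 1, and 2 without glo1 knockout replicate 3 or with library totals alone. mt-nd6, a subunit of complex I, rose by 0.40 ± 0.07 (edgeR adjusted p = 0.000907), whereas mt-nd4l, another subunit, fell by 0.28 ± 0.06 (edgeR adjusted p = 0.0041). mt-nd6 is encoded on the opposite strand to the other protein genes, and the sources used here do not give the strand setting of the counting. Nuclear genes of the respiratory chain gave 3 higher and 8 lower of 88, with a median of -0.01. The lower share was near the 9.26% of all genes, of which 6.48% were higher. The 8 became 5 without glo1 knockout replicate 2, 3 or 5 or double knockout replicate 4, 4 without double knockout replicate 5 and 16 with scaling by library totals alone. The 3 higher became 1 without glo1 knockout replicate 1 or 4 or double knockout replicate 2 or 4, and 0 without glo1 knockout replicate 5, with library totals alone and in the model over all 20 libraries. The 100 most abundant genes of each library took 32 ± 0.478% of counts in the glo1 knockout libraries and 33.2 ± 1.21% in the others (SD, n = 5 each; exact permutation p = 0.0794, and 0.0317 without double knockout replicate 2).

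Blood and transport genes were few but included several changes past the threshold. Of 17 blood genes 5 were higher and 1 lower, against 6.48% higher and 9.26% lower among all genes. The higher count was 3 without glo1 knockout replicate 2, 3 or 4 and 2 without glo1 knockout replicate 5 or double knockout replicate 4. It was 3 with library totals alone and 8 with limma, and the lower count was 0 with a filter of 5 CPM. alas2, the first enzyme of heme synthesis in red cells, rose by 0.53 ± 0.11 (edgeR adjusted p = 0.00637), with overlapping groups. tfr1a, a transferrin receptor, fell by 0.82 ± 0.16 (edgeR adjusted p = 0.00244). slc5a2, the glucose cotransporter of the kidney tubule, read 0.299, 0.601, 0.579, 0.654 and 0.610 CPM in the glo1 knockout libraries and 2.38, 2.62, 2.23, 2.47 and 2.51 CPM in the double knockout libraries. It stood clearly apart between the groups and rose by 2.15 ± 0.21 (edgeR adjusted p = 3.82e-06). In fatty acid metabolism 4 genes were higher and 3 lower of 42 (2 higher without glo1 knockout replicate 5 or with library totals alone, 1 lower with a filter of 5 CPM), and cpt1ab, which imports fatty acids into mitochondria, rose by 0.53 ± 0.08 (edgeR adjusted p = 0.000243) while plin2, a coat protein of lipid droplets, fell by 0.78 ± 0.17 (edgeR adjusted p = 0.00513).

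In the circadian clock 0 of 40 genes were higher and 5 lower, a lower share near the 9.26% of all genes. Higher genes numbered 3 without glo1 knockout replicate 3, 1 without double knockout replicate 2 or 5 or with limma and 2 with DESeq2. The lower count was 3 without glo1 knockout replicate 4 or 5 or double knockout replicate 3, 4 or 5 and 1 in the model over all 20 libraries. hlf, a clock output transcription factor, fell by 0.59 ± 0.14 (edgeR adjusted p = 0.00765). The immune lists were short, and among all genes 6.48% were higher and 9.26% lower. In the interferon list 0 of 16 genes passed by edgeR, DESeq2 or limma, or at an unadjusted p under 0.05, with a median of -0.06. In the innate immune list 3 of 29 were higher (0 with a filter of 5 CPM), and in the immunoproteasome and antigen presentation list mhc1zba was the 1 gene of 10 that passed. marco, a scavenger receptor of macrophages, rose by 0.93 ± 0.21 (edgeR adjusted p = 0.00581), from 1.04 to 2.0 CPM. In DNA replication and mitosis 2 of 55 genes were higher and 0 lower. Lower genes numbered 4 without double knockout replicate 2 and 1 with DESeq2, limma, library totals alone or no robust estimation. The number higher was 1 without glo1 knockout replicate 5 or double knockout replicate 4, with library totals alone and in the model over all 20 libraries.

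The same loss was then set beside these values on the wild type background, in aldh3a1 knockout and wild type libraries that the comparison above did not use. In the model over all 20 libraries 13637 of 22234 genes (61.3%) differed between aldh3a1 knockout and wild type (29.4% higher, 32% lower), and for 7905 genes (35.6%) the change differed between the backgrounds. Of the 1393 genes higher in the double knockout, 896 (64.3%) were also higher on the wild type background, which was 13.9% of the 6463 genes higher there, and 88 were lower there. Of the 1989 lower genes, 1743 (87.6%) were also lower on the wild type background, 25.2% of the 6907 lower there, and 43 were higher there. Among the genes measured in both, 30.1% and 32.1% were higher and lower on the wild type background.

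By list, all 75 higher ribosomal genes and all 11 lower liver secreted genes changed the same way on the wild type background. So did all 10 lower insulin and glucose transport genes and all 14 lower sarcomere genes. On that background 80 of 84 ribosomal genes were higher. Lower there were 22 of 28 secreted liver genes, 29 of 60 insulin and glucose transport genes and 70 of 83 sarcomere genes. Agreement was favoured where most of a list moved that way. Some lists agreed less. Of 12 lower lens genes 6 were lower on both backgrounds and 2 higher on the wild type background. Of 6 lower phototransduction genes 2 were lower on both and 4 higher on the wild type background. The median there was 0.68 for the ribosomal genes, where it was 0.24 on the glo1 knockout background, -1.43 for the secreted liver proteins (-0.45), -1.56 for the enterocyte genes (-0.28) and -0.87 for the sarcomere genes (-0.07). Differences between these list medians were not tested. The skin list had 22 higher and 1 lower of 40 genes on the glo1 knockout background and 11 higher and 12 lower on the wild type background, with 10 of the 22 higher on both.

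Gene by gene, 15 of the 20 genes named for size had a change that differed between the backgrounds, against 35.6% of all genes tested. These 20 were chosen for a large change in libraries that this difference also uses. A high share was thus favoured by the choice. actc1c fell by 2.63 ± 0.28 on the wild type background (edgeR adjusted p = 4.08e-07), opposite to its rise of 6.55 here, and the difference was 9.17 ± 0.47 (edgeR adjusted p = 8.63e-09). ahsa1 (ENSDARG00000028664) fell by 1.4 there and the difference was 4.32 ± 0.33 (edgeR adjusted p = 1.36e-08), and scg5 (ENSDARG00000077045) fell by 1.01 there with a difference of 3.81 ± 0.47 (edgeR adjusted p = 1.68e-05). ecrg4 (ENSDARG00000088717) changed by 0.01 on the wild type background (edgeR adjusted p = 0.979), and averaged 15.7 CPM in wild type, 15.7 in aldh3a1 knockout, 3.84 in glo1 knockout and 15.4 in double knockout larvae.

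For the lower genes the picture was mixed. sgcg fell by 2.73 on the wild type background, more than the 1.37 here, with a difference of 1.36 ± 0.24 (edgeR adjusted p = 0.000288). mybpc2 fell by 0.98 there, less than the 1.80 here, with a difference of -0.82 ± 0.20 (edgeR adjusted p = 0.00376). fabp7 (ENSDARG00000034650) changed by -0.04 there (edgeR adjusted p = 0.892), with a difference of -1.36 ± 0.34 (edgeR adjusted p = 0.00421). fabp7 averaged 3.33 CPM in wild type, 7.52 in glo1 knockout and 2.86 in double knockout larvae, on the scale of all 20 libraries. In the same order the means were 7.73, 22.7 and 4.45 CPM for hsp70l, and 22.3, 14.9 and 5.78 CPM for sgcg. For c3a.2, bfsp1, prss59.1 and anxa6, and for the higher gene slc27a1, the difference did not pass (edgeR adjusted p = 0.148, 0.144, 0.108, 0.265 and 0.108), which does not show that the changes were alike. It passed for c3a.2 without wild type replicate 3 (0.97, edgeR adjusted p = 0.0212) and for anxa6 without double knockout replicate 3 (-0.75, edgeR adjusted p = 0.0493).

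**Figure D5:**
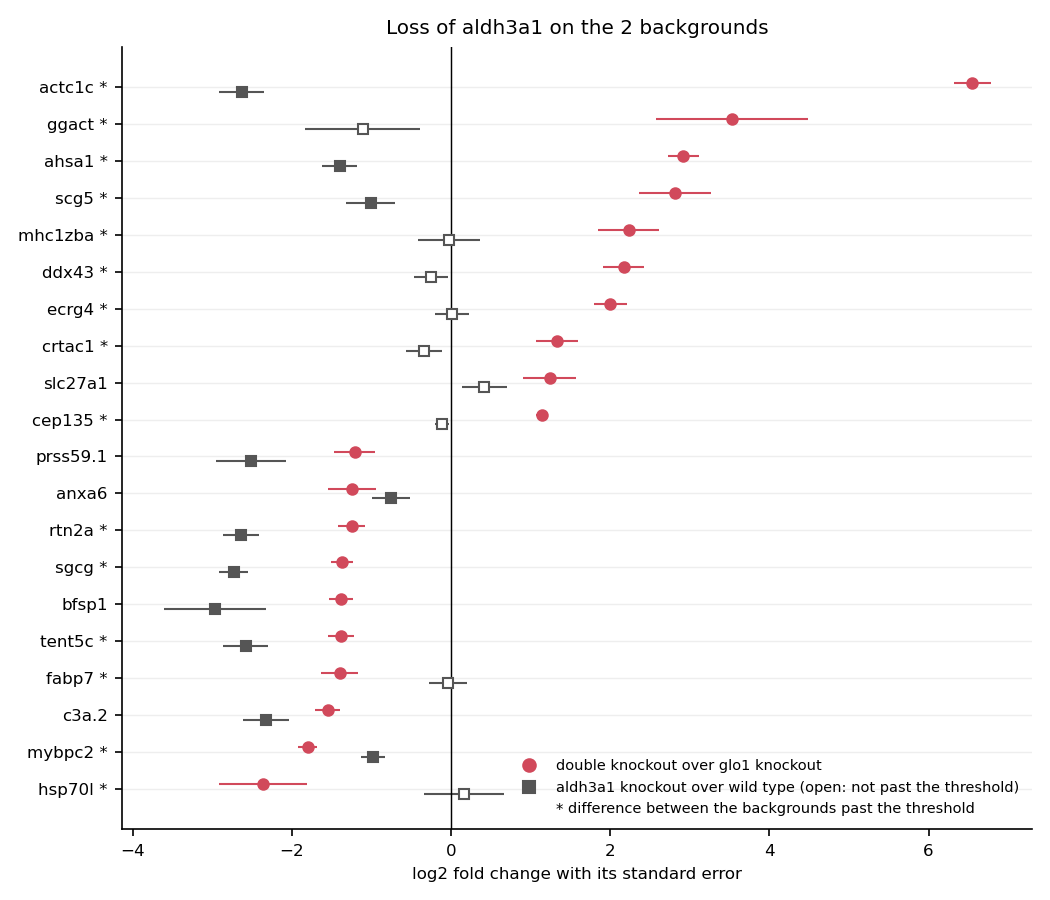
Log2 fold change with its standard error for the 20 genes named for size, double knockout over glo1 knockout (red circles) and aldh3a1 knockout over wild type (grey squares, open where not past an adjusted p of 0.05), n = 5 libraries a group. An asterisk marks the 15 genes whose change differed between the backgrounds; actc1c is at 6.55 on the glo1 knockout background and at -2.63 on the wild type background.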

How the data were processed

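RNA of whole zebrafish larvae was sequenced as strand-specific mRNA libraries on the DNBSEQ platform, per the labels' protocols. Each deposited value is a raw count of a gene in a library; the submitters' processing notes name featureCounts 2.0.3 and the genome build GRCz11, and the sources used here give neither the aligner nor the strand setting. Of 32520 gene IDs, 29201 matched a symbol. Groups followed the genotype labels.

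The 10 glo1 knockout and double knockout libraries were fitted with edgeR 4.0.16 (R 4.3.3; filterByExpr, TMM factors, robust quasi-likelihood F-test), and p-values were adjusted by Benjamini-Hochberg over 21490 genes, which held 99.95% of the counts. The standard error is the log2 fold change divided by the root of F. The wild type background came from the same test in a model over all 20 libraries and 22234 genes. Shares of counts were compared by exact two-sided permutation tests. The test was checked on simulated counts.

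Genes were named by rule: a fixed set (glo1, alpha actins, islet hormones, pck1, pck2, fbp1a, fbp1b, kdrl, cdh5, tek), the 10 largest changes in each direction with a symbol, at least 5 CPM and no overlap, and up to 3 changed members with the smallest adjusted p in lists with at least 3. Genes with clone or locus names were left out of the changes named for size. The members and the 38 gene lists were chosen with earlier results of these data known. The alternatives were other scaling factors, library totals, DESeq2 1.42.0, limma 3.58.1, other filters, no robust estimation, a replicate block, the model over all 20 libraries and leaving out each library.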

Additional observations from a re-analysis of the deposited data

Results flagged for a closer look

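In 17 of 342 groups of 5 libraries tested, 1 library lay far from the others of its group by Dixon's criterion, where chance gives about 1 in 20. Of the alpha actins, this was actc1a in double knockout replicate 3 (134 CPM). Among the genes named for size, these were ggact (ENSDARG00000038248) in glo1 knockout replicate 1 (2.5 CPM), scg5 (ENSDARG00000077045) in glo1 knockout replicate 4 (2.26 CPM) and double knockout replicate 4 (15 CPM), slc27a1 (ENSDARG00000104949) in double knockout replicate 2 (8.81 CPM), cep135 in double knockout replicate 3 (18.8 CPM) and fabp7 (ENSDARG00000034650) in double knockout replicate 2 (1.24 CPM). Among the list members they were alas2 and slc5a2 in glo1 knockout replicate 1 (41.0 and 0.299 CPM), rpl14 and pdk1 in glo1 knockout replicate 5 (1003 and 11.5 CPM), ass1 in glo1 knockout replicate 4 (6.43 CPM), rlbp1b in glo1 knockout replicate 3 (72.7 CPM), cxcl8a in double knockout replicate 2 (0.788 CPM) and hmcn1 in double knockout replicate 5 (17.6 CPM). The fatty acid list stood apart in glo1 knockout replicate 1 (mean log2 level 0.06) and double knockout replicate 3 (0.04), relative to the glo1 knockout mean.

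The change on the glo1 knockout background differed from that on the wild type background for 7905 genes. The genes named for size were chosen on libraries that this difference also uses, which favours a difference among them. Among the genes named for size, the difference in log2 change was 9.17 for actc1c, 4.64 for ggact, 4.32 for ahsa1, 3.81 for scg5, 2.42 for ddx43, 2.25 for mhc1zba, 1.99 for ecrg4, 1.67 for crtac1, 1.38 for rtn2a, 1.36 for sgcg, 1.25 for cep135 and 1.2 for tent5c. It was -0.82 for mybpc2, -1.36 for fabp7 and -2.52 for hsp70l. These were tested by the interaction term of the edgeR model over all 20 libraries, with adjusted p between 8.63e-09 for actc1c and 0.0185 for tent5c. The difference for ggact was 8.47 without glo1 knockout replicate 1.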

How the results depend on the processing

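The count of genes higher in the double knockout was 828 with library totals alone, and between 919 and 1397 when 1 library was left out. Over the same libraries left out, between 2261 and 3359 genes changed in all, between 1336 and 1963 were lower and between 226 and 322 moved at least 2-fold. With a filter of 5 CPM in 5 libraries, 41 genes moved at least 2-fold. Among the other settings, DESeq2 called 3957 genes, limma 3643 and the model over all 20 libraries 2521. The share of the 100 most abundant genes differed by 2.54 percentage points when taken over the TMM effective library size (exact permutation p = 0.0238) and by 0.806 to 1.57 points when 1 library was left out, reaching p = 0.0317 without double knockout replicate 2. No named gene's called change and no share turned its sign under the alternatives run, but the balance of higher and lower calls turned in some gene lists, as with library totals alone in phototransduction (5 higher, 11 lower), glutathione and Nrf2 targets (2 and 5) and chaperones.

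The replicate numbers showed no sign of pairing the libraries. Libraries with the same number correlated between -0.119 and 0.0377 in their deviations from the group means. No double knockout library correlated best with its own number. With 5 libraries a group this cannot exclude a weak pairing. With the replicate number as a block, 2651 genes were called. Of the exocrine pancreas genes 15 were then lower, against 8 without the block, and the difference between the backgrounds passed for slc27a1 (0.90, edgeR adjusted p = 0.0469). Without the block 7 cartilage and matrix genes, 3 nuclear respiratory genes and 2 glycolysis genes were higher, and with it 3, 1 and 1. Of the liver enzymes 1 was lower without it and 2 with it, and in DNA replication and mitosis 0 and 1. The mitochondrial share (0.205 points) and the ribosomal share (1.36 points) then had an exact p of 0.0625, the smallest that 5 pairs can give.

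Of the 130 genes with values tabulated, 117 were called, 102 of these with every library left out in turn and 85 under every alternative. Genes of a few CPM, such as ggact and ins, rest on few counts, which limits what these libraries can show for them.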

Other observations

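Other gene groups are set here beside the shares of all genes, 6.48% higher and 9.26% lower. In cartilage, bone and matrix 7 of 78 genes were higher and 6 lower, and the counts depended on the libraries: 2 higher without glo1 knockout replicate 5 or double knockout replicate 5, 3 without double knockout replicate 3 and 4 without glo1 knockout replicate 3 or double knockout replicate 4, and 2 lower without glo1 knockout replicate 5 or double knockout replicate 4 and 3 without glo1 knockout replicate 1. col4a1, a collagen of basement membranes, fell by 0.63 ± 0.16 (edgeR adjusted p = 0.0128), with overlapping groups. In the model over all 20 libraries both counts were 2, and with library totals alone 2 were higher. In the kidney and ionocyte list 4 of 31 genes were higher and 3 lower. The number of lower genes was 5 without glo1 knockout replicate 4 or double knockout replicate 3, 1 without glo1 knockout replicate 1 or 3 or double knockout replicate 4 or 5 and 6 with library totals alone, and the higher count was 1 with a filter of 5 CPM. atp1a1a.2, a sodium pump subunit, rose by 0.40 ± 0.08 (edgeR adjusted p = 0.00305), and slc4a4 (ENSDARG00000013730), a bicarbonate cotransporter, fell by 0.25 ± 0.05 (edgeR adjusted p = 0.00195).

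Cholesterol synthesis had 2 higher and 2 lower of 31 genes. The higher count was 1 without glo1 knockout replicate 1, 2, 3 or 4 or double knockout replicate 1, 2, 4 or 5, and the lower count was 1 without glo1 knockout replicate 1, 3 or 5 or double knockout replicate 2, 3, 4 or 5. Both counts were also 1 in the model over all 20 libraries, the higher one with a filter of 5 CPM, library totals alone, upper quartile factors or no robust estimation, and the lower one with limma. stard4, a sterol carrier, rose by 0.40 ± 0.09 (edgeR adjusted p = 0.00612) and scap, which escorts the sterol-sensing transcription factors, fell by 0.41 ± 0.09 (edgeR adjusted p = 0.0066). An ID of mfap4 (ENSDARG00000038683), a symbol shared with other IDs, rose by 2.28 ± 0.49 (edgeR adjusted p = 0.0041), and by 2.94 without glo1 knockout replicate 1. Its levels were very low, with means of 0.130 CPM in glo1 knockout and 0.647 CPM in double knockout larvae. In its list of innate immune genes 26 of 29 did not pass.

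Measured genes next to aldh3a1 in the gene order of the GRCz12tu assembly were counted, a set chosen after the data were seen. Of the 20 nearest 6 were called, of the 40 nearest 12 and of the 80 nearest 20, where 15.5% of 14569 genes placed in that order were called. These are counts with no test.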
